A study of Rattus norvegicus with 6 samples.

Results

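The lncRNAs described here were listed at an FPKM of 0 in every control sample and above 0 in every sample of high glucose/palmitate-treated INS-1 cells, and 87 of the 18649 lncRNAs in the deposited tables (0.467%) met this rule. They are called treatment-only lncRNAs below. Since they were chosen by the measured values of the same 6 samples, the difference between the groups is a consequence of the choice. Their levels are therefore given as a description, and nothing is read from a test of that difference. INS-1, a rat insulinoma line that secretes insulin, stands in for pancreatic beta cells in culture. RNA sequencing compared 3 samples of control cells (Con) with 3 samples (HG/PA) kept for 24 h in 25 mM glucose with 0.5 mM palmitate. The paper does not separately state the glucose level or the vehicle given to the control samples. The question was which lncRNAs the treatment alters. The study describes biological triplicates, but the sample labels do not say that the samples came from separate cultures, so p-values measure only the spread between these samples.

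Long noncoding RNAs are transcripts that carry no evident protein-coding sequence, and many of them are present at low levels and in few cell types. Some act in the nucleus on the transcription of nearby genes, while others act in the cytoplasm by binding proteins or microRNAs. Glucolipotoxicity is the damage that sustained high glucose together with saturated fatty acids such as palmitate causes in beta cells, with oxidative stress, endoplasmic reticulum stress, loss of insulin secretion and apoptosis.

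FPKM stands for fragments per kilobase of transcript per 1000000 fragments. In each sample at least 99.93% of the products of FPKM and transcript length were whole multiples of a sample-specific step (within 0.1 step), from which the sequenced fragments behind each value were recovered. The steps implied totals of 13770572 (Con 1), 12491512 (Con 2), 12528977 (Con 3), 12656958 (HG/PA 1), 13688920 (HG/PA 2) and 13187382 (HG/PA 3) fragments. The mean total of the groups was therefore close, with 12930354 in Con and 13177753 in HG/PA. For a transcript of 1000 nt, a single fragment corresponded to an FPKM between 0.0726 and 0.0801, depending on the sample. A value above 0 can thus rest on 1 fragment, and a lncRNA listed at 0 in all 3 samples of a group may still have had up to 3 fragments over the group at this depth. This floor covers counting error only. An exact 0 in an FPKM table may also be a failed estimate, so the text says that a lncRNA was listed at 0 and not that it was absent. The lncRNAs carry NONCODE or Ensembl transcript identifiers that the tables do not pair with gene names, and the gene table used here, which is of another assembly, matched none of them.

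The treatment-only lncRNAs stood at one corner of the detection pattern. Of all listed lncRNAs, 15403 were above 0 in all 6 samples. Another 98 were at 0 in Con and above 0 in a single HG/PA sample, 143 were at 0 in Con and above 0 in 2 HG/PA samples, and 87 were above 0 in all 3. The mirror group, above 0 in every Con sample and at 0 in every HG/PA sample, held 50 lncRNAs, so the treatment-only lncRNAs were 1.74 times as many. The mirror group is called control-only lncRNAs. The ratio was between 1.22 and 1.96 when a sample was left out, and 1.13 when up to 1 fragment was allowed in each sample of the other group (548 against 485). With at least 2 or at least 3 fragments in each detected sample it was 2.08 or 2.33. In a single sample, 17317, 17261 and 17248 lncRNAs were above 0 in Con 1, 2 and 3, against 17371, 17435 and 17401 in HG/PA 1, 2 and 3. Every HG/PA sample thus listed slightly more lncRNAs above 0 than any Con sample, although the fragments on listed lncRNAs overlapped between the groups, at 1331555, 1201514 and 1164564 for Con and 1128838, 1199658 and 1215753 for HG/PA. Whether this small shift in detection has a part in the larger number of treatment-only lncRNAs was not tested.

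**Figure D1:**
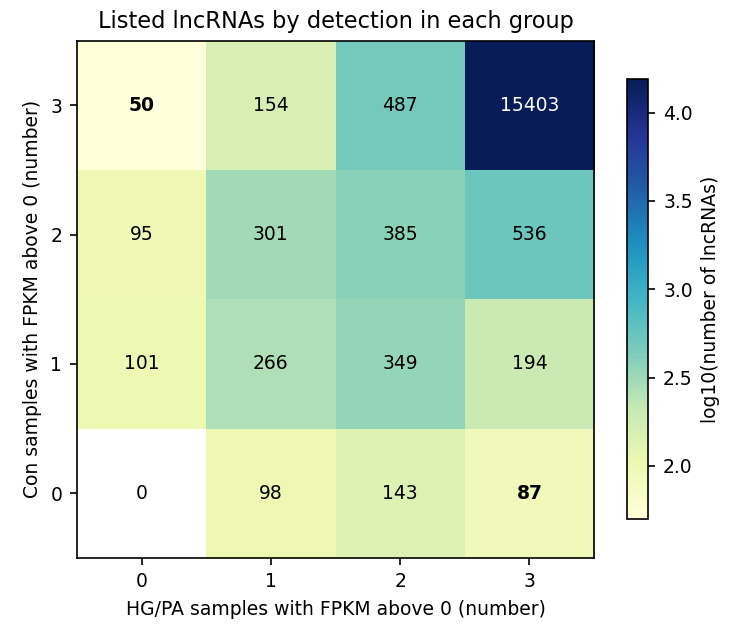
Number of listed lncRNAs by the number of Con samples (vertical axis) and HG/PA samples (horizontal axis) in which the FPKM was above 0, with the shade showing the number on a log10 scale. The 87 treatment-only lncRNAs are at the lower right, the 50 control-only lncRNAs at the upper left, and no listed lncRNA was at 0 in all 6 samples.

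Most treatment-only lncRNAs rested on very few fragments. The total over the 3 HG/PA samples ranged from 3 to 155, with a median of 5. In 55 of the 87 the total was between 3 and 5, and 22 of them had exactly 1 fragment in each HG/PA sample. For 62 of the 87, the lowest HG/PA sample held a single fragment. At least 2 fragments in each HG/PA sample were found for 25 lncRNAs, at least 3 for 14, at least 5 for 9, at least 10 for 4 and at least 20 for 3. All 87 together held 1023 fragments, and the 3 best-covered lncRNAs held 367 of these (35.9%). The control-only lncRNAs were thinly covered as well, with a median of 5 fragments and a highest total of 73 over the Con samples. Of the 50, 12 had at least 2 fragments in each Con sample, 6 at least 3, and none at least 20.

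**Figure D2:**
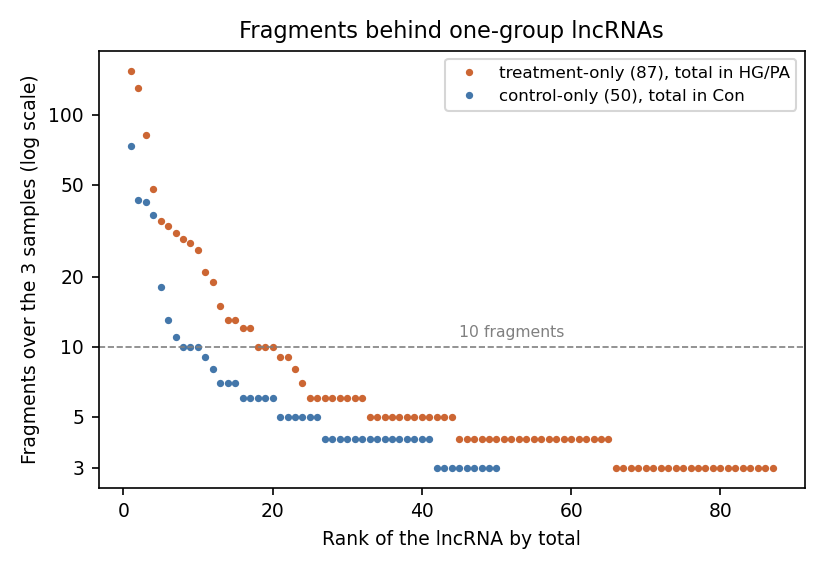
Fragments over the 3 samples of the group in which a lncRNA was detected (vertical axis, log scale), for the 87 treatment-only and the 50 control-only lncRNAs ranked by that total (horizontal axis). The dashed line marks 10 fragments, which 17 treatment-only and 7 control-only lncRNAs exceeded.

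In FPKM, the mean over the HG/PA samples ranged from 0.0392 to 8.14 among the treatment-only lncRNAs, with a median of 0.213, and 10 of them reached a mean of 1. The median over all listed lncRNAs in the HG/PA samples was 1.35. The treatment-only lncRNAs therefore lay mostly far below the typical listed lncRNA. Their fragments summed to 358, 334 and 331 in HG/PA 1, 2 and 3, which is 28.3, 24.4 and 25.1 per 1000000 fragments. Without the 3 best-covered lncRNAs, the sums were 192, 238 and 226 fragments, or 15.2, 17.4 and 17.1 per 1000000. The HG/PA samples thus contributed similar amounts, and the higher sum of HG/PA 1 came from those 3 lncRNAs. In bulk RNA, more transcript per cell and more cells that hold the transcript cannot be told apart.

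The best-covered treatment-only lncRNA was NONRATT005603.2, a spliced transcript of 484 nt on chromosome 10 of the rat genome Rnor_6.0, from 56578985 to 56582007. Its FPKM was 9.14, 5.74 and 9.56 in HG/PA 1, 2 and 3 (8.14 ± 2.10, SD, n = 3), from 56, 38 and 61 fragments, and it was listed at 0 in Con 1, 2 and 3. HG/PA 2 was the lowest of the treated samples, and still held 38 fragments. Its HG/PA level was 50.7 times a floor of 3 fragments over the Con group, the largest such ratio among the treatment-only lncRNAs. This ratio describes values that the rule used, and its floor covers counting error only. It is therefore not a lower limit of the change. NONRATT005603.2 overlapped no other listed lncRNA. The nearest was NONRATT005604.2, 1799 bp away, with an FPKM of 4.57, 2.69 and 5.60 in Con 1, 2 and 3, and of 3.23, 3.63 and 2.88 in HG/PA 1, 2 and 3. The groups overlapped for this neighbour, and limma gave a log2 fold change of -0.33 with an adjusted p of 0.613 (standard error 0.28).

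NONRATT018750.2 and NONRATT021493.2 came next. NONRATT018750.2, on chromosome 3 from 148215582 to 148216710, is 913 nt long and had FPKM values of 6.14, 2.96 and 1.83 in HG/PA 1, 2 and 3, from 71, 37 and 22 fragments. HG/PA 1 was thus more than 3 times as high as HG/PA 3, and the spread among the treated samples was wide (3.64 ± 2.24, SD, n = 3). Its HG/PA level was 42.5 times the Con floor. NONRATT021493.2, on chromosome 4 from 100222885 to 100224722, is 569 nt long and had FPKM values of 5.42, 2.70 and 2.93, from 39, 21 and 22 fragments. It was also highest in HG/PA 1, with HG/PA 2 and HG/PA 3 close to each other, and its level was 26.8 times the Con floor. Unlike NONRATT005603.2, both overlapped other listed lncRNAs, which are described further on.

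The next 7 by fragments in their lowest HG/PA sample had mean FPKM values between 0.574 and 1.39. NONRATT007972.2 on chromosome 12, from 38786051 to 38794285, had FPKM values of 1.13, 1.15 and 1.08 in the HG/PA samples, from 10, 11 and 10 fragments. It varied least among the well-covered lncRNAs, with an SD of 0.0332 around a mean of 1.12. NONRATT007189.2 on chromosome 11, from 88173646 to 88185944, had 12, 15 and 8 fragments and a mean FPKM of 0.982 ± 0.279 (SD, n = 3). NONRATT015469.2 on chromosome 2, from 189436877 to 189450111, had 11, 6 and 12 fragments, so that HG/PA 2 was the low sample (1.17 ± 0.414, SD, n = 3). In NONRATT014519.2 on chromosome 19, from 19899577 to 19913572, the order was different, with 5 fragments in HG/PA 1, 11 in HG/PA 2 and 17 in HG/PA 3. NONRATT021220.2, an unspliced transcript of 1226 nt on chromosome 4 from 30544835 to 30546060, had 9, 14 and 5 fragments, and no other listed lncRNA lay within 10 kb of it. NONRATT019787.2 and NONRATT019853.2, both on chromosome 3, had 5, 11 and 10 and 7, 8 and 4 fragments, which correspond to mean FPKM values of 1.39 and 1.15. For these 7 lncRNAs the HG/PA level was between 6.21 (NONRATT019853.2) and 11.4 (NONRATT007189.2) times the Con floor.

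The 17 lncRNAs with over 10 fragments showed how the treated samples differed from one another. The ratio of the highest to the lowest HG/PA FPKM was between 1.06 and 13.4, with a median of 2.16, and it was under 2-fold in 5 of the 17. The highest value was in HG/PA 1 for 4, in HG/PA 2 for 8 and in HG/PA 3 for 5 of them. No single treated sample therefore carried the set. The widest spread was that of NONRATT026457.2 on chromosome 7, chosen for description after its values were seen, which had 2 fragments in HG/PA 1 but 18 in HG/PA 2 and 28 in HG/PA 3. Its FPKM of 0.217 in HG/PA 1 was closer to 0 than to the 1.81 and 2.92 of the other treated samples.

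**Figure D3:**
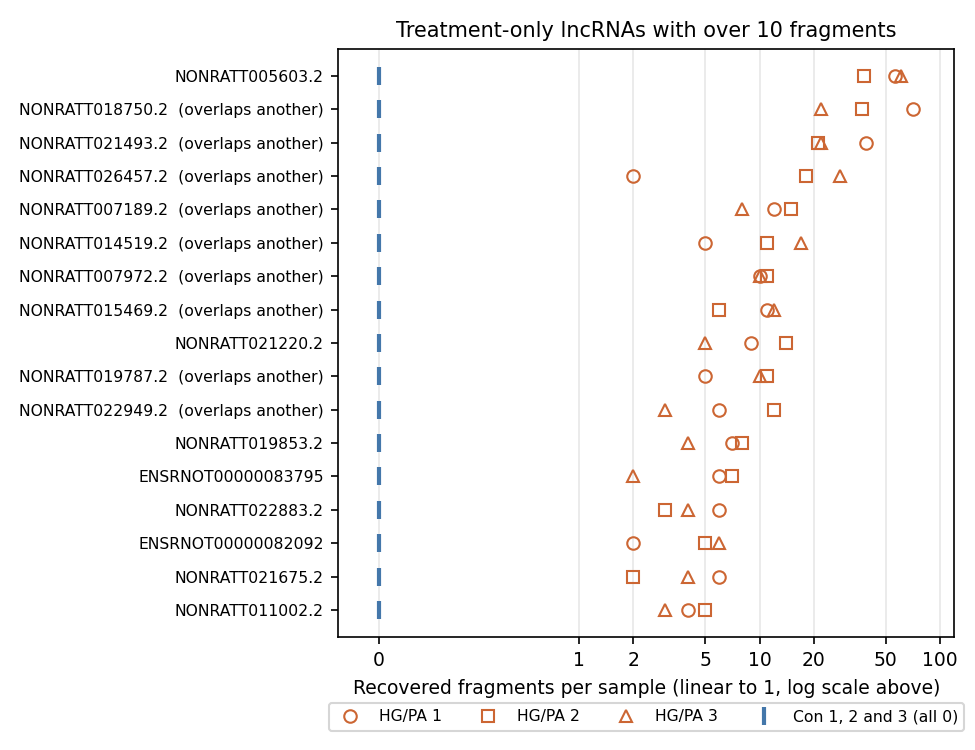
Recovered fragments per sample (horizontal axis, linear up to 1 and on a log scale above) for the 17 treatment-only lncRNAs with over 10 fragments; open symbols are the HG/PA samples and the blue marks at 0 are the Con samples. Symbols of the 3 HG/PA samples lie within a 2-fold range of FPKM for only 5 of the 17. Another listed lncRNA is overlapped by 9 of the 17, against 30.4% of all listed lncRNAs.

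Of the 87 lncRNAs, 8 carried Ensembl transcript identifiers (9.2%), against 3.66% of all listed lncRNAs. Among the 2747 listed lncRNAs with at most 10 fragments over the 6 samples the share was 9.87%, close to that of the treatment-only lncRNAs. The best covered of the 8 were ENSRNOT00000083795 on chromosome 9, with 6, 7 and 2 fragments in the HG/PA samples, and ENSRNOT00000082092 on chromosome 12, with 2, 5 and 6. ENSRNOT00000085500 on chromosome 3 had 2 fragments in each HG/PA sample. ENSRNOT00000082729 on chromosome 7 and ENSRNOT00000088267 on chromosome 19 each had 1, 1 and 2. At 195 nt, ENSRNOT00000088267 was the shortest treatment-only lncRNA, and its 4 fragments gave a mean FPKM of 0.519. The longest, NONRATT006797.2 on chromosome 11, had the same fragments over 2581 nt and a mean FPKM of 0.0392. Equal fragments thus stood for FPKM values that differed more than 10-fold.

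The remaining Ensembl transcripts, ENSRNOT00000078358, ENSRNOT00000081464 and ENSRNOT00000081799, had 1 fragment in each HG/PA sample and lay just inside the rule. Just outside it were lncRNAs kept out by a single Con fragment, of which there were 105 with all HG/PA samples above 0. NONRATT012706.2 on chromosome 17 had 0, 1 and 0 Con fragments against 8, 11 and 15 HG/PA fragments. NONRATT029356.2 on chromosome 9 had 1, 0 and 0 against 4, 4 and 4, and NONRATT030493.2 on chromosome X had 0, 0 and 1 against 3, 18 and 3. These 3 were chosen as those of the 105 with the most fragments in their lowest HG/PA sample. They do not show how well the 105 were covered in general. With at most 1 fragment in each Con sample and at least 3 in each HG/PA sample, 28 lncRNAs were found, of which 14 were treatment-only. The mirror of that count was 11, of which 6 were control-only.

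Other lncRNAs were kept out by a 0 in 1 treated sample, and the 3 of these with the highest HG/PA totals are given. NONRATT028100.2 on chromosome 8 was at 0 in Con and had 1109, 0 and 216 fragments in HG/PA 1, 2 and 3. NONRATT003130.2 on chromosome 1 was at 0 in Con and had 0, 59 and 51, and NONRATT028050.2 on chromosome 8 had 45, 0 and 58. A listed 0 thus stood beside many fragments in a sample of the same group. Such a 0, next to at least 20 fragments in another sample of its group, occurred in 165 lncRNAs in Con, in 138 in HG/PA and in 250 in either group, which is 2.78% of the 9003 lncRNAs with at least 20 fragments in a sample. Of these 250, 139 (55.6%) overlapped another listed lncRNA, compared with 32.7% of the 9003. The treatment-only lncRNAs cannot be among them, because the rule requires the samples of a group to be all at 0 or all above 0.

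The lncRNAs around these 3 were looked at after the values were seen. NONRATT028048.2, the only listed lncRNA that overlaps NONRATT028050.2, had 199, 206 and 185 fragments in the controls against 205, 243 and 233 after treatment, and thus changed little in HG/PA 2, where NONRATT028050.2 was listed at 0. At the other loci, single neighbouring lncRNAs varied more. NONRATT003131.2 spans nearly the same interval as NONRATT003130.2, from 195078705 to 195094661 against 195078699 to 195094636, and had 42, 29 and 21 fragments in the controls against 32, 4 and 7 after treatment. It was therefore high in HG/PA 1, where NONRATT003130.2 was listed at 0, and low where NONRATT003130.2 was high. NONRATT003130.2 overlaps 11 listed lncRNAs, and another of these, NONRATT003138.2, had 60, 76 and 9 fragments in HG/PA 1, 2 and 3. Together, the 11 changed little among the treated samples, with 435, 432 and 482 fragments in Con against 548, 540 and 541 in HG/PA. On chromosome 8, NONRATT028101.2 and NONRATT028102.2 follow NONRATT028100.2 within a few kilobases. In Con 1, 2 and 3, NONRATT028101.2 had 0, 0 and 1506 fragments and NONRATT028102.2 had 1122, 1095 and 112. In HG/PA 1, 2 and 3, NONRATT028101.2 had 0, 2014 and 69 and NONRATT028102.2 had 22, 76 and 1259. Each of these 3 lncRNAs ranged from at or near 0 to over 1000 fragments, but their sum was 1122, 1095 and 1618 in Con and 1131, 2090 and 1544 in HG/PA. In every sample, 1 of the 3 held most of the fragments, and which one it was differed within both groups. Whether the estimation moved fragments among such neighbours was not tested.

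The surroundings of the treatment-only lncRNAs were therefore examined. Of the 87, 67 overlapped no other listed lncRNA, and the nearest listed lncRNA was at a median distance of 37.8 kb from these. The other 20 (23%) overlapped at least 1 listed lncRNA, against 30.4% of all listed lncRNAs and 25.2% of those with at most 10 fragments. Overlap here is of genomic spans, since the tables give neither exons nor strand. Among the 17 lncRNAs with over 10 fragments, 9 overlapped another lncRNA and 8 did not. That share is above the 30.4% of all listed lncRNAs and the 32.7% of those with at least 20 fragments in a sample. With 17 lncRNAs, this is a description only. For all 20, the overlapping lncRNAs had fragments in at least 1 Con sample, and for 17 of them in all 3, with a Con total from 1 to 2751 fragments and a median of 106. At these 20 loci, fragments were thus found in Con as well, listed under other transcripts than the treatment-only one. When overlapping lncRNAs were joined and their fragments summed, 68 of 15155 loci were treatment-only and 41 control-only.

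The overlapping lncRNAs themselves mostly had similar totals in both groups. In 14 of the 20 cases they held at least 20 fragments in Con, and their HG/PA level, scaled to depth, was between 0.647 and 2.32 times the Con level, with a median of 0.997. In 11 of the 14 the ratio lay between 0.667 and 1.5. The treatment-only lncRNA held between 0.145% and 83.3% of the HG/PA fragments of its locus, with a median of 15.7%. It thus usually held fewer fragments than its overlapping lncRNAs together, of which there were up to 8. The share does not rank it against each of them. The smallest share was that of NONRATT020383.2 on chromosome 4, with 1, 2 and 1 fragments, which overlapped NONRATT021347.2. The FPKM of NONRATT021347.2 was 28.0, 28.1 and 29.9 in Con and 29.9, 26.0 and 28.6 in HG/PA, so the groups overlapped. The largest share was that of NONRATT007189.2, whose single overlapping lncRNA had 1, 2 and 2 Con fragments against 2, 0 and 5 for HG/PA.

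**Figure D4:**
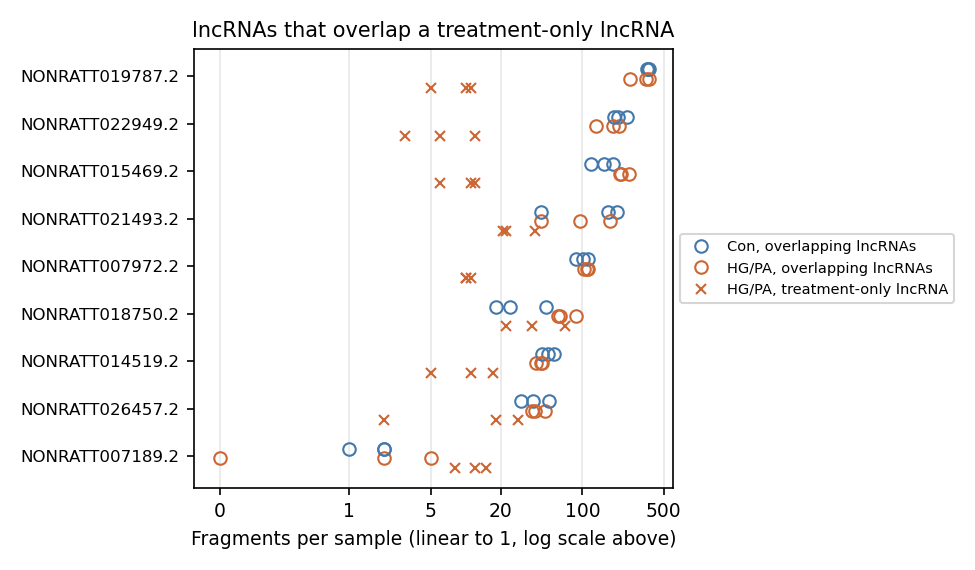
Fragments per sample (horizontal axis, linear up to 1 and on a log scale above) on the lncRNAs that overlap each of 9 treatment-only lncRNAs with over 10 fragments (circles, blue for Con and orange for HG/PA), with the fragments of the treatment-only lncRNA itself as crosses. The circles of the groups overlap in most loci, while for NONRATT018750.2 and NONRATT015469.2 all HG/PA circles lie to the right of all Con circles.

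At the locus of NONRATT018750.2, the overlapping lncRNAs held 18, 24 and 49 fragments in the controls against 62, 64 and 89 in the treated samples. Every HG/PA sample was above every Con sample there, and the ratio of 2.32 was the highest of the 14 loci with at least 20 Con fragments. Most of these fragments belonged to NONRATT018749.2, with FPKM values of 0.703, 1.09 and 2.18 in Con and 2.74, 2.62 and 3.75 in HG/PA. Its log2 fold change of 1.26 (standard error 0.40) did not pass limma's test, with an adjusted p of 0.178. Among the lncRNAs with over 10 fragments, NONRATT015469.2 was the other case of this kind, with 153, 183 and 118 Con fragments on its 8 overlapping lncRNAs against 216, 254 and 212 for HG/PA. Among the others, the overlapping lncRNAs had 11, 8 and 9 against 14, 17 and 20 fragments for NONRATT013301.2, and 1, 4 and 3 against 5, 5 and 13 for NONRATT013962.2. For NONRATT023168.2 the order was turned, with 33, 28 and 27 against 16, 22 and 20. Scaled to depth, all HG/PA samples lay above all Con samples at 4 of the 20 loci and below them at 2, and the groups overlapped at 14. The share of all listed lncRNAs with such a separation was not determined, so these counts are a description of the 20 loci only. The other locus below was that of NONRATT014519.2, with 4.14, 4.08 and 3.59 fragments per 1000000 on the overlapping lncRNAs in Con against 3.16, 3.29 and 3.34 in HG/PA. At the locus of NONRATT021493.2, in contrast, the overlapping NONRATT021491.2 had FPKM values of 8.11, 2.38 and 10.8 in Con and 2.35, 4.70 and 8.83 in HG/PA. The groups overlapped widely, and both contained a sample with 44 fragments.

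Near-identical spans were found at 2 of the 20 loci, when the overlapping lncRNA had to share at least 90% of the wider span. NONRATT014518.2 on chromosome 19, from 19899539 to 19913553, shared 99.7% with NONRATT014519.2. It had 15 fragments in Con 1 and was listed at 0 in Con 2, Con 3 and all HG/PA samples. Together, the pair of transcripts was thus above 0 in Con 1 and in all HG/PA samples. NONRATT022950.2 on chromosome 5, from 173372690 to 173385765, shared 99.9% with the treatment-only NONRATT022949.2. It had 16, 0 and 17 fragments in the controls against 0, 21 and 7 in the treated samples, whereas NONRATT022949.2 had 6, 12 and 3 in HG/PA. The remaining 18 shared between 0.0837% and 84.3% of the wider span. At the locus of NONRATT023126.2, the overlapping NONRATT023125.2 varied within both groups, with 0, 0 and 24 fragments for Con 1, 2 and 3 against 24, 1 and 0 for HG/PA 1, 2 and 3. The criterion of a shared span and these examples were chosen after the values were seen.

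The median length of the treatment-only lncRNAs was 561 nt, with the middle of the distribution between 421 and 745.5 nt, against 663 nt for all listed lncRNAs and 532 nt for those with at most 10 fragments. An unspliced structure, with a length equal to the span on the genome, was listed for 42 of the 87 (48.3%), compared with 45.9% of all listed lncRNAs and 39.8% of those with few fragments. Control-only lncRNAs had a median length of 591.5 nt, and 20 of 50 (40%) were unspliced. The median genomic span was 912 nt, shorter than the 1459 nt of all listed lncRNAs, the 1408 nt of those with few fragments and the 1146.5 nt of the control-only lncRNAs. The widest span was that of NONRATT013301.2, 111803 nt of chromosome 18 from 25750994 to 25862796, although its transcript is 414 nt long and had 2 fragments in each HG/PA sample. These differences were not tested.

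The 87 lncRNAs lay on 20 of the 21 chromosomes. Chromosomes 1 and 13 held 9 each, which is 0.396% of the listed lncRNAs of chromosome 1 but 1.5% of those of chromosome 13. Chromosome 8 held 8 (0.783%), chromosome 16 held 6 (1.05%), chromosome 10 held 2 (0.133%), and none lay on chromosome 6. For comparison, control-only lncRNAs numbered 11 on chromosome 1, 1 on chromosome 13 and 0 on chromosome 16. With such small counts, these are descriptions only. Few treatment-only lncRNAs were neighbours of each other. NONRATT002396.2 and NONRATT002397.2 on chromosome 1 lay 185 bp apart and had 1 fragment in each HG/PA sample. NONRATT011002.2 and NONRATT011003.2 on chromosome 15 lay 7955 bp apart, with 4, 5 and 3 fragments and 2, 1 and 7 fragments. No other pair lay within 10 kb.

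The treatment-only lncRNAs were not chosen by the values of the other listed lncRNAs around them, so the change of these neighbours could be tested. Neighbours that met the rule themselves were left out, which removes lncRNAs listed only in HG/PA. Limma was fitted to log2(FPKM + 0.1) for the 17558 lncRNAs that reached an FPKM of 0.1 in 3 or more samples. A call required a 2-fold change or more together with an adjusted p below 0.05. Because of the added 0.1, fold changes of low lncRNAs come out too small on this scale. Over all lncRNAs tested, 0.655% were called higher and 0.832% lower in HG/PA, and the median log2 fold change was -0.12, which became 0.01 after rescaling by the median of ratios. The balance of calls depended on this scaling, with 115 higher and 146 lower without it and 135 higher and 90 lower with it. It also differed in fits without 1 sample, in which the FPKM of 0.1 had to be reached in 2 or more samples instead of 3. Without Con 1, 2 or 3 there were 69, 57 or 63 higher and 57, 47 or 43 lower. Without HG/PA 1, 2 or 3 there were 51, 43 or 57 higher and 53, 51 or 85 lower. The samples and the filter changed together in these fits, so their effects cannot be told apart. Of the 87 treatment-only lncRNAs, 74 passed the filter through their HG/PA values, and 36 of them were called higher. That count follows from the choice of the lncRNAs and is given for completeness only, beside the background of 0.655%. This background includes the 36, and 79 of the 17484 other tested lncRNAs were called higher. Of the 17 with over 10 fragments, 16 were tested and 14 called, and of the 55 with a total of 3 to 5 fragments, 48 were tested and 14 called.

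Within 10 kb of a treatment-only lncRNA lay 93 other listed lncRNAs, of which 84 were tested. None of the 84 was called by limma, and none by limma-voom on the recovered fragments, beside 1.29% and 1.18% of all tested lncRNAs that are not treatment-only. At such shares few calls can be looked for among 84 lncRNAs, so the count of 0 says little about the neighbours. At an unadjusted p below 0.05, limma gave 8 (9.52%, against 17.3% of all tested lncRNAs) and limma-voom gave 10 (11.9%, against 17.5%). The median log2 fold change of the 84 was 0.02, with the middle of the distribution between -0.35 and 0.33, and 44 (52.4%) were above 0 compared with 39.9% of all tested lncRNAs. For the 42 tested lncRNAs that overlapped a treatment-only lncRNA, the median was 0.06 and 59.5% were above 0. The medians of the neighbours thus lay slightly above that of all tested lncRNAs. This difference was not tested, and overlapping transcripts may share fragments with the treatment-only lncRNAs. Around the control-only lncRNAs, 50 were tested within 10 kb and the median was -0.17, with 36% above 0. None of the 50 was called by limma, a number too small to set against the 1.29%.

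**Figure D5:**
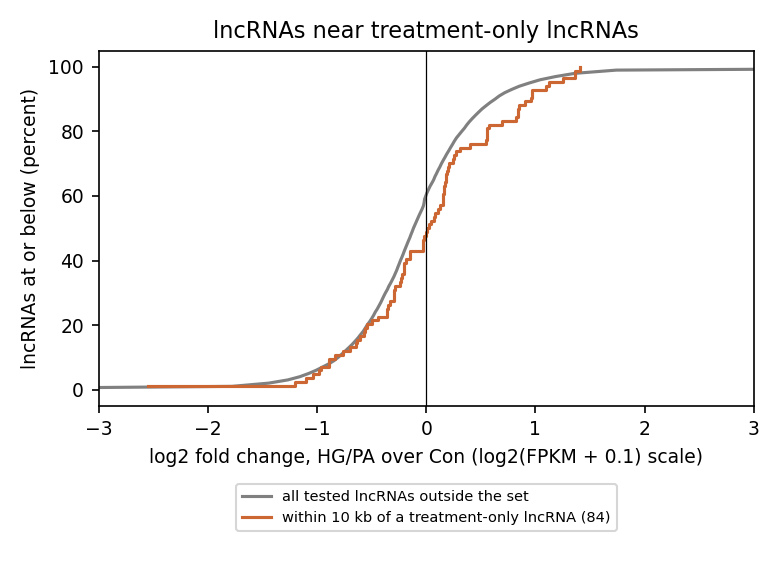
Cumulative share of lncRNAs (vertical axis, percent) by log2 fold change of HG/PA over Con (horizontal axis, log2(FPKM + 0.1) scale), for the 84 tested lncRNAs within 10 kb of a treatment-only lncRNA (orange) and for all tested lncRNAs outside the treatment-only set (grey). The orange line lies to the right of the grey line over most of its upper range, with medians of 0.02 and -0.12.

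Farther out, within 100 kb, 337 lncRNAs were tested and 3 were called, and their median log2 fold change of -0.11 was close to that of all tested lncRNAs. NONRATT011461.2 on chromosome 16 lay 29.3 kb from the treatment-only NONRATT011462.2 and had 32, 20 and 30 Con against 66, 69 and 78 HG/PA fragments, with a log2 fold change of 1.36 (limma, standard error 0.18, adjusted p = 0.0175). NONRATT017140.2 on chromosome 20, 47.5 kb from NONRATT017145.2, had 6, 3 and 5 against 14, 21 and 25 fragments, a log2 fold change of 1.93 (limma, standard error 0.32, adjusted p = 0.0351). NONRATT017247.2, also on chromosome 20 and 27.3 kb from NONRATT017246.2, went the other way, with 50, 48 and 46 against 25, 18 and 22 fragments and a log2 fold change of -1.15 (limma, standard error 0.19, adjusted p = 0.0345). The share called within 100 kb was 0.89%, beside 1.29% of all tested lncRNAs outside the treatment-only set. The treatment-only lncRNAs next to NONRATT017140.2 and NONRATT017247.2 had 4 and 3 fragments in all.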

How the data were processed

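RNA sequencing of 3 Con and 3 HG/PA samples was analysed. The authors filtered reads with seqtk, mapped them with HISAT2 to Rnor_6.0, and obtained FPKM values with StringTie, and they used edgeR for differential expression. The deposited tables hold an FPKM value, a position and a length for each lncRNA. Fragments were recovered from FPKM times length: 100.0% of values up to 20 steps and at least 99.93% of all values were whole within 0.1 step. Limma 3.58.1 in R 4.3.3 (eBayes with a trend, Benjamini-Hochberg adjustment) was tested on simulated data. Other steps used Python 3.11.15, numpy 2.4.6 and pandas 2.3.3.

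The members and lists were chosen with earlier results of these data known. Named lncRNAs were the 10 with most fragments in their lowest HG/PA sample, the 3 highest in FPKM, those with Ensembl identifiers, pairs within 10 kb, extremes of length and span, those just inside and outside the rule, the 3 with most fragments on overlapping lncRNAs, and the 3 best-covered control-only lncRNAs. The latter, NONRATT019925.2, NONRATT004541.2 and NONRATT000494.2, had 26, 19 and 28, 12, 10 and 20, and 23, 9 and 11 fragments in Con. Those just inside the rule had the lowest HG/PA totals. Those just outside had the most fragments in their lowest HG/PA sample or the highest HG/PA totals of their kind. Other lncRNAs were chosen after their values were seen. Fragments of the 6 replicate pairs gave a chi-square divided by its degrees of freedom of 7.63 to 10.7, so no pair was treated as 1 library deposited again. Protein-coding genes, cell identity markers and sequences were not analysed here.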

Additional observations from a re-analysis of the deposited data

How the results depend on the processing

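Requiring at least 2 or at least 3 fragments in each detected sample left 25 or 14 treatment-only and 12 or 6 control-only lncRNAs, against 87 and 50. Allowing at most 1 fragment in each sample of the other group gave 548 and 485, and leaving out 1 sample gave 123 to 155 and 79 to 109, more than 1.5 times the number for any sample except HG/PA 1 in the treatment-only count. An FPKM of at least 0.1 (74 and 43) or joined loci (68 and 41) moved them less. These shifts follow from stricter or looser rules.

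Limma called 261 lncRNAs (115 higher, 146 lower), 157 with a pseudocount of 1 and 94 to 142 without 1 sample. All fits without 1 sample also lowered the filter from 3 samples to 2, so their counts reflect both changes. The split was 135 to 90 after median-of-ratios rescaling and 92 to 84 without a trend. Counts of treatment-only lncRNAs called restate the choice of these lncRNAs at every setting and show nothing about their stability. They were 36, against 51 without a trend, 38 after rescaling, 28 with a pseudocount of 0.01, 26 without a filter, 19 with limma-voom, 7 with a pseudocount of 1 and 9 to 14 without 1 sample. With a replicate block, limma called 13 (1 treatment-only) and limma-voom 51 (5 treatment-only), but same-numbered samples did not deviate together (correlations of -0.012, -0.013 and -0.029). Neighbours called were 0 within 10 kb, 3 within 100 kb and 0 to 1 without 1 sample, the 1 being NONRATT011861.2 without HG/PA 1 (adjusted p = 0.047 from limma). With 0, 3 and 2 fragments in HG/PA and 0 in Con, it was not tested with all samples. Without HG/PA 1 it passed only through the lower filter of 2 samples, and there it meets the treatment-only rule itself. The causes were not tested.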
